A study of Mus musculus with 27 samples.

Results

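Magoh, Czib, Cpt2 and Slc1a7 are 4 protein-coding genes of mouse chromosome 4 that follow the lipoprotein receptor gene Lrp8 on its right, the side of rising coordinates. They were chosen by name, and for each gene all 10 kb bins of the contact matrices that overlap it were taken. The 4 genes cover 12 bins and are 4 of the 30 genes annotated in the window studied, of which 17 lie left of a deleted interval, 12 lie right of it and 1 spans it. The series asked what follows when CRISPR-Cas9 removes a boundary between topologically associating domains (TADs), which are lengths of chromosome that fold mostly upon themselves. Its 27 samples are whole mouse testis, and 6 of them, 3 of genotype Wild-type and 3 homozygous for the deletion (genotype B396.BOS_hom_KO), were profiled by capture Hi-C, which joins DNA ends lying close together in the nucleus and enriches chosen regions with probes. In the libraries, bins 107720001 to 107730000 and 107730001 to 107740000 of homozygotes held 0.175% and 0.438% of the wild-type contacts with bins outside the interval, and bin 107710001 to 107720000 held 85.9%. The deletion is 1 engineered allele, the age of the animals and the origin of the replicates in separate animals are not given in the sources used here, and p-values therefore measure only the spread between these samples. Whole testis is a mixture of germ cells at many stages with somatic cells, so a contact made in fewer cells and a contact made less often in each cell cannot be told apart.

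Magoh encodes a core subunit of the exon junction complex, which marks spliced messenger RNA and takes part in its export and quality control. Czib encodes a small zinc-binding protein with a CXXC motif. Cpt2 encodes the carnitine palmitoyltransferase of the inner mitochondrial membrane, which hands long-chain fatty acids over to oxidation. Slc1a7 encodes the glutamate transporter EAAT5, best known from the retina. The first 3 are genes that most cell types use, whereas Slc1a7 is not usually counted among housekeeping genes, so the 4 are called here the genes right of Lrp8. TAD boundaries are known to limit contacts between genes and control elements that lie on either side of them.

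On GRCm38.p6, Magoh (gene ID 17149) lies at chr4:107879755-107887424 on the plus strand and Czib (74098, formerly 0610037L13Rik) at chr4:107889785-107897803 on the plus strand. Cpt2 (12896) lies at chr4:107903982-107923589 on the minus strand, and Slc1a7 (242607) at chr4:107968406-108013529 on the plus strand. Counted from the right edge of the interval, the genes begin 139.755, 149.785, 163.982 and 228.406 kb away, with Lrp8 (chr4:107802200-107876840) between them and the interval. Both bins of Magoh are shared, 1 with Lrp8 and 1 with Czib, so the values of Magoh and Czib are not independent. Cpt2 has 3 bins of its own. The 6 bins of Slc1a7 lie just beyond the core of dense capture, and the first is shared with the long non-coding RNA gene 4930407G08Rik.

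The sequence before each gene's start is shown because promoters of widely used genes are often rich in CpG dinucleotides. RefSeq promoters (GRCm38.p6) were at hand for all 4 genes, and the 250 bases before the first transcript start listed there are printed 5′ to 3′ on the gene's strand, with every CpG in capitals. For Czib 2 starts are listed, and 41 bases of the window printed lie inside the gene as annotated. The windows are chr4:107879505-107879754 (Magoh), chr4:107889576-107889825 (Czib), chr4:107923590-107923839 (Cpt2) and chr4:107968156-107968405 (Slc1a7).
Magoh: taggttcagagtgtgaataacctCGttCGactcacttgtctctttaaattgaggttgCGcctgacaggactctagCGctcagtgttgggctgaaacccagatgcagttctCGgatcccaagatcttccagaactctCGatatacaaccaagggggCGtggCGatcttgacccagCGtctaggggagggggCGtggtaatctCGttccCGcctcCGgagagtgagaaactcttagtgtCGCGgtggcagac
Czib: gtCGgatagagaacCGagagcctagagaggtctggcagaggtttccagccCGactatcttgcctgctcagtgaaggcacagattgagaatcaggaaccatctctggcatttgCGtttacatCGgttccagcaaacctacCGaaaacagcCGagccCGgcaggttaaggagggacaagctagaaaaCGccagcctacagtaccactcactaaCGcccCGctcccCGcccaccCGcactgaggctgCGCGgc
Cpt2: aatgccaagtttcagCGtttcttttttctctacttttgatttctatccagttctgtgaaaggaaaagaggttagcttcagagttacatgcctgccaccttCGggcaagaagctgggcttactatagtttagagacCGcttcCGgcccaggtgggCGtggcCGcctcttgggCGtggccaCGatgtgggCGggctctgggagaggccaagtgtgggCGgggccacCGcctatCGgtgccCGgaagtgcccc
Slc1a7: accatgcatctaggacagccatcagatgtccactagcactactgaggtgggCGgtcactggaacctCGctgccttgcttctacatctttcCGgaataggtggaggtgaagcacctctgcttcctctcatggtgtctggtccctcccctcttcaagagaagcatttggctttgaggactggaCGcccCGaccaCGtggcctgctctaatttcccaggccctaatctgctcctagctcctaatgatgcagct
The Magoh and Czib windows hold 15 CpGs each, the Cpt2 window 13 and the Slc1a7 window 6. Among the windows of 27025 genes the median was 6 CpGs, and 72.5%, 72.5%, 68.2% and 49.5% of them held fewer than those of Magoh, Czib, Cpt2 and Slc1a7, in that order. By this count Slc1a7 sits at the middle of all genes and the other members above it. The GC box GGGCGG, sought on both strands, occurs 0 times in the Magoh window, 1 time for Czib, 2 times for Cpt2 and 1 time for Slc1a7, and 32.9% of all windows hold at least 1. The contact data are binned at 10 kb and do not resolve these windows.

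The libraries held between 5669898 and 7794641 contacts, of which 667965 to 1247072 fell within the captured region chr4:102820001-110380000 outside the interval. The ratio of contacts in the chromosome 4 region to those in a second captured region, on chromosome 2, was 0.854 and 0.826 in the replicate 2 libraries of wild type and homozygotes, and 0.567 to 0.608 in the other 4, so replicate 2 stood apart in both genotypes. Values without both replicate 2 libraries, an alternative added after the values were seen, are therefore given beside the comparisons of shares, levels, segments and the ratio to Lrp8. The core is chr4:107110001-107960000, with 60 bins (600 kb) left of the interval and 22 bins (220 kb) right of it.

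The first comparison asked whether the genes right of Lrp8 contact the far side of the interval more often once it is gone. It used the share of a gene's core contacts that fell left of the interval, which needs no scaling for library size. All 4 genes had higher shares in homozygotes. The gain was 3.97 percentage points for Magoh, 3.67 for Czib, 2.20 for Cpt2 and 2.04 for Slc1a7, following the order of the genes along the chromosome.

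For Magoh the shares were 26.1%, 26.3% and 25.1% in wild type (replicates 1 to 3, an order kept below), against 29.9%, 30.05% and 29.5% in homozygotes. The homozygous libraries lay close together and all above wild type. The means were 25.8% ± 0.659 (SD, n = 3) and 29.8% ± 0.308 (SD, n = 3), and the 2-sided exact permutation p was 0.1, the smallest that 3 against 3 libraries allow. These shares rest on 3212 to 6400 contacts left of the interval per library.

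For Czib the shares were 26.1%, 26.4% and 24.7% in wild type, against 29.8%, 29.1% and 29.4% in homozygotes. The groups did not overlap, and wild-type replicate 3 was the lowest library, as for Magoh. The means were 25.7% ± 0.942 (SD, n = 3) and 29.4% ± 0.356 (SD, n = 3; exact permutation p 0.1). With the bin that Czib shares with Magoh left out, the difference was 3.24 points.

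Cpt2 had shares of 24.9%, 24.9% and 23.6% in wild type, against 27.1%, 26.3% and 26.6% in homozygotes. Again every homozygous library exceeded every wild-type library, by a narrower margin than for Magoh. The means were 24.5% ± 0.779 (SD, n = 3) and 26.7% ± 0.396 (SD, n = 3; exact permutation p 0.1).

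Slc1a7 had shares of 40.4%, 41.1% and 39.3% in wild type, against 42.0%, 42.6% and 42.4% in homozygotes. The groups were separate, with a gap smaller than the spread among the wild-type libraries. The means were 40.3% ± 0.933 (SD, n = 3) and 42.3% ± 0.296 (SD, n = 3; exact permutation p 0.1). The level of this share cannot be set beside those of the other genes, because the bins of Slc1a7 lie outside the core and its nearest neighbours are not counted on the right.

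**Figure D1:**
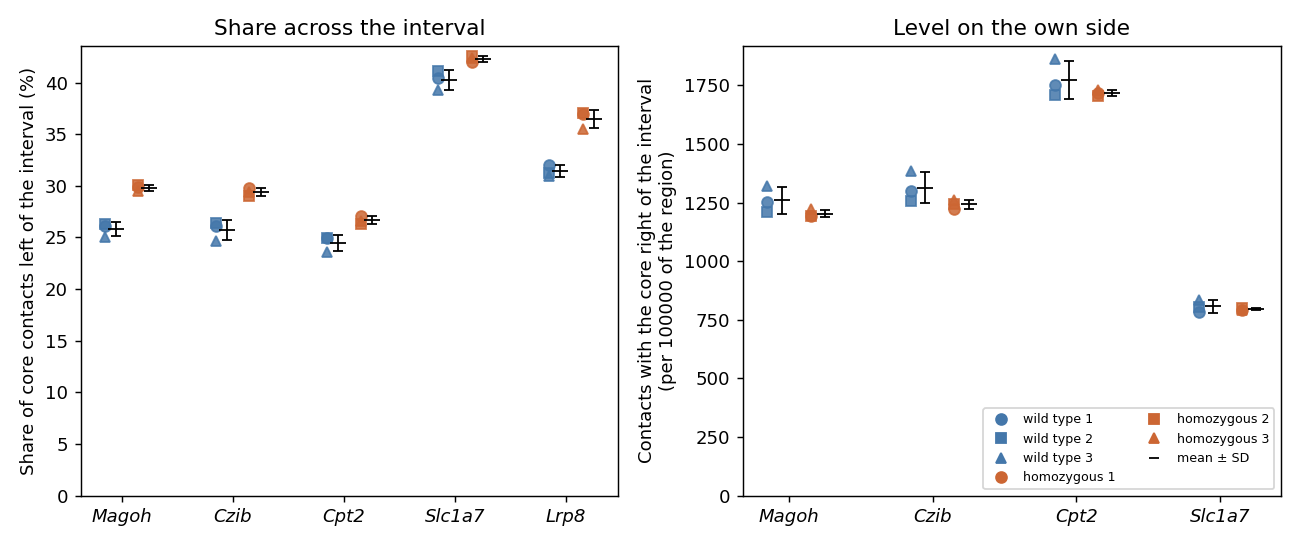
Share of each gene's core contacts that fell left of the interval, in percent, for Lrp8 and the 4 genes to its right; each point is 1 library and the bars are the mean and SD of 3 libraries per genotype. Homozygous points lie above wild-type points for all genes shown, from 29.5% to 30.05% against 25.1% to 26.3% for Magoh and from 42.0% to 42.6% against 39.3% to 41.1% for Slc1a7.

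The separation of genotypes was not particular to these 4 genes. It was found in 77 of the 82 core bins outside the interval (93.9%), each measured toward the opposite side, and in 12 of 12 genes right of the interval (100%). Adjusted over the 4 genes with the Benjamini-Hochberg method, each exact permutation p remained 0.1. Same-numbered libraries differed by 3.78, 3.74 and 4.37 points for Magoh and by 1.56, 1.46 and 3.11 points for Slc1a7, all upward, as were those of Czib and Cpt2 (exact sign-flip p 0.25 for each gene, the smallest for 3 pairs). Without both replicate 2 libraries the differences were 4.08 points for Magoh, 4.19 for Czib, 2.60 for Cpt2 and 2.34 for Slc1a7.

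A share can move through its contacts on the left or on the right, so both were measured per 100000 contacts of the captured region. The level left of the interval was higher in homozygotes for all 4 genes. The log2 ratio of homozygous to wild-type means was 0.22 for Magoh, 0.19 for Czib, 0.12 for Cpt2 and 0.10 for Slc1a7.

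For Magoh the left level was 443, 431 and 442 in wild type, against 509, 513 and 510.0 in homozygotes. The homozygous libraries agreed within a few contacts per 100000 and lay well clear of wild type, with means of 439 ± 6.54 and 511 ± 2.02 (SD, n = 3 each; exact permutation p 0.1, adjusted p 0.1). For Czib it was 460.3, 451 and 453 in wild type, against 518, 509 and 525 in homozygotes. These groups did not overlap either, and the means were 455 ± 5.05 and 517 ± 7.57 (SD, n = 3 each; exact permutation p 0.1, adjusted p 0.1).

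For Cpt2 the left level was 581, 567 and 575 in wild type, against 639, 608 and 628 in homozygotes. The gap between the highest wild-type and the lowest homozygous library was smaller than for Magoh, and the means were 575 ± 7.26 and 625 ± 15.4 (SD, n = 3 each; exact permutation p 0.1, adjusted p 0.1). For Slc1a7 it was 530.2, 561 and 539 in wild type, against 574, 593 and 582 in homozygotes. Replicate 2 was the highest library of each genotype here, and the groups did not overlap (544 ± 16.03 and 583 ± 9.81, SD, n = 3 each; exact permutation p 0.1, adjusted p 0.1). Such separation was found in 16 of the 22 core bins right of the interval (72.7%) and in 9 of the 12 genes there (75%). When the same counts were divided by all contacts of the library, the genotypes overlapped for all 4 genes, with log2 ratios of 0.21 for Magoh, 0.18 for Czib, 0.11 for Cpt2 and 0.09 for Slc1a7. Without both replicate 2 libraries, and per 100000 contacts of the region, the genotypes were separate with log2 ratios of 0.20, 0.19, 0.13 and 0.11 in the same order.

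Relative to their larger wild-type level, contacts with the genes' own side moved less, although per 100000 the falls in the means for Czib and Cpt2 (-71.6 and -56.0) were larger than their gains on the left (62.7 and 50.6). For Magoh the level right of the interval was 1251, 1208 and 1320.1 in wild type, against 1193, 1195 and 1221 in homozygotes, and for Czib 1301, 1255 and 1384 in wild type, against 1222, 1244 and 1259.5 in homozygotes. For both genes the lowest wild-type library fell among the homozygous ones. The log2 ratios were -0.07 for Magoh (exact permutation p 0.2, adjusted p 0.4) and -0.08 for Czib (exact permutation p 0.2, adjusted p 0.4).

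For Cpt2 the right level was 1749, 1708 and 1864 in wild type, against 1719, 1704 and 1729.7 in homozygotes, a log2 ratio of -0.05 (exact permutation p 0.3, adjusted p 0.4). For Slc1a7 it was 782, 804 and 834 in wild type, against 793, 801 and 792 in homozygotes, a log2 ratio of -0.02 (exact permutation p 0.6, adjusted p 0.6). Genotypes overlapped for all 4 genes, and 1 of 22 core bins on the right (4.55%) and 0 of 12 genes (0%) had lower, separate values. Between same-numbered libraries the right level was lower in every pair for Magoh (-58.0, -13.4 and -99.3), Czib (-79.1, -11.4 and -124) and Cpt2 (-30.4, -3.82 and -134), but not for Slc1a7 (11.2, -3.73 and -42.3). The exact sign-flip p was 0.25 for Magoh, Czib and Cpt2. Without wild-type replicate 2 the genotypes separated for Magoh (log2 ratio -0.10), Czib (-0.11) and Cpt2 (-0.07), as they did without replicate 2 of both genotypes (-0.09, -0.11 and -0.07), where Slc1a7 still overlapped (-0.03). Wild-type replicate 2 was the lowest wild-type library for Magoh, Czib and Cpt2, so leaving it out widens the gap. Slc1a7 separated in the same direction without wild-type replicate 1 (-0.04), its own lowest wild-type library. Magoh and Czib separated also without homozygous replicate 3, their highest homozygous library. Fewer libraries also separate more easily, and no share over the 12 genes is given for these settings. Summed over both sides, the core contacts of each gene overlapped between the genotypes, from 1698 ± 61.7 in wild type to 1714 ± 15.2 in homozygotes for Magoh and from 2348 ± 83.2 to 2343 ± 25.9 for Cpt2 (SD, n = 3 each).

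Contacts with the interval itself fell away in homozygotes. Per 100000, Magoh had 56.4, 54.4 and 53.9 such contacts in wild type, against 13.02, 10.1 and 10.5 in homozygotes. Slc1a7 had 45.4, 49.6 and 49.3 against 13.3, 11.9 and 12.2. The interval's first bin, at 85.9% of its wild-type contacts, is largely still present.

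Removing sequence brings the flanks closer together, and closer sequences touch more often. The gain expected from this alone was taken from the decay of contacts with distance in the chromosome 2 core, for the 21.3 kb that the coverage of the interval's 3 bins leaves missing. For Magoh the expected log2 gain in left contacts was 0.06, against 0.22 observed. For Czib it was 0.06 against 0.19, for Cpt2 0.05 against 0.12, and for Slc1a7 0.04 against 0.10.

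With 3 whole bins taken as missing, which is more than the coverage gives, the expected gains were 0.09 for Magoh and 0.08 for Czib. They were 0.07 for Cpt2 and 0.06 for Slc1a7. The genotypes remained separate after this correction for Magoh (log2 ratio 0.13) and Czib (0.11) but overlapped for Cpt2 (0.05, exact permutation p 0.2) and Slc1a7 (0.05, exact permutation p 0.3). For Slc1a7 they overlapped after the correction for 21.3 kb too (0.06, exact permutation p 0.2). A decay fitted within the left side of chromosome 4, added after the values were seen, gave expected gains for 21.3 kb of 0.07 for Magoh, 0.07 for Czib, 0.06 for Cpt2 and 0.05 for Slc1a7. For 3 bins it gave 0.10, 0.10, 0.09 and 0.07 in the same order. Whether the shorter distance accounts for the gain was not tested. In the shares, the corrected difference for 21.3 kb with the chromosome 2 decay was 3.09 points for Magoh, 2.87 for Czib, 1.54 for Cpt2 and 1.39 for Slc1a7.

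**Figure D2:**
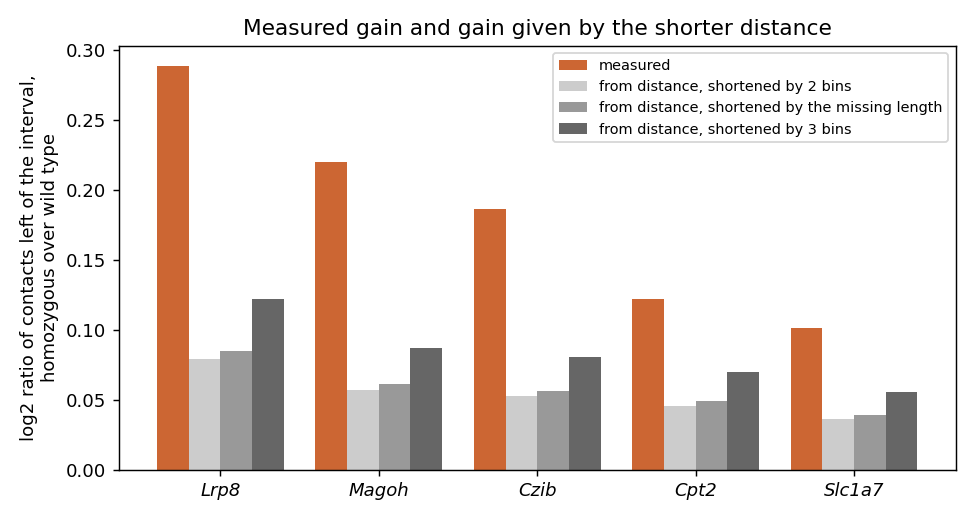
Observed log2 ratio of left contacts, homozygous over wild type, beside the ratio expected from the shorter distance (chromosome 2 decay) for Lrp8 and the 4 genes to its right; the expected values are for 2 bins, for 21.3 kb and for 3 bins removed. Observed values run from 0.29 for Lrp8 and 0.22 for Magoh down to 0.10 for Slc1a7. The 3-bin expectations are 0.12 for Lrp8, 0.09 for Magoh and 0.06 for Slc1a7. Whether distance accounts for the gain was not tested.

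The left side was then divided into 6 segments of 100 kb to place the gain. Genotypes did not overlap, homozygotes being higher, in 16 of the 24 combinations of gene and segment, and 0 were lower, against 43 of 72 (59.7%) over all 12 genes right of the interval. The count was 5 of 6 for Magoh, 6 of 6 for Czib, 2 of 6 for Cpt2 and 3 of 6 for Slc1a7. Each separate combination had an exact permutation p of 0.1, adjusted to 0.15 over the 24. Without both replicate 2 libraries 19 combinations were higher and 0 lower, counts for which no share over all 12 genes is given.

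For Magoh the log2 ratios ran from 0.14 in the segment 107210001 to 107310000 to 0.27 in 107510001 to 107610000, where the level was 71.4, 76.6 and 70.5 in wild type, against 82.9, 94.6 and 85.3 in homozygotes. Every homozygous library was higher there, and the segment lies within the transcription factor gene Glis1. Czib had its largest ratio, 0.28, in the segment farthest from it (107110001 to 107210000), where the level was 61.1, 55.2 and 56.1 in wild type, against 74.6, 64.5 and 70.6 in homozygotes. The highest wild-type library stayed below the lowest homozygous one.

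Cpt2 was higher in 107410001 to 107510000 (log2 ratio 0.19, 92.8, 103 and 99.2 against 110.5, 114 and 112) and in 107510001 to 107610000 (0.18), both overlapping Glis1. Slc1a7 had its largest ratio, 0.17, in 107510001 to 107610000, at 101, 114 and 100.0 in wild type, against 116, 124 and 115 in homozygotes. The highest wild-type library there came close to the lowest homozygous one.

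The segment next to the interval (107610001 to 107710000), which holds the testis transcription factor gene Dmrtb1, differed among the genes. Magoh was higher there in every homozygous library (log2 ratio 0.23, 107, 105 and 111 against 120.4, 127 and 133). Czib was higher by less (0.13, 114.6, 111 and 109.9 against 114.7, 122 and 131), and its closest libraries nearly touched. For Cpt2 (0.05) and Slc1a7 (0.05) the genotypes overlapped. After correction for 21.3 kb, 11 of the 24 combinations remained higher. The segment beside the interval was then lower for Cpt2 (log2 ratio -0.05), the 1 combination that became lower, and overlapped for the other 3 genes. After correction for 3 bins, 8 of 24 were higher and the same Cpt2 segment was lower (-0.09).

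At the scale of single bins the gain was spread along the left side. Of the 60 left bins, 57 had a log2 ratio above 0 for Magoh, 56 for Czib, 49 for Cpt2 and 43 for Slc1a7, with medians of 0.22, 0.18, 0.12 and 0.10. No share of bins above 0 over all 12 genes is given, so these counts are not read as particular to the 4 genes. Genotypes were separate and homozygotes higher in 21 bins for Magoh (35.0%), 15 for Czib (25.0%), 12 for Cpt2 (20.0%) and 4 for Slc1a7 (6.67%), against 26.7% of 720 combinations over all 12 genes. The share for Slc1a7 is below that background and the share for Magoh above it, which was not tested.

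The largest single ratio, 0.60, joined Czib to 107360001 to 107370000, with counts of 53, 86 and 54 in wild type, against 78, 122 and 92 in homozygotes. The nuclear pore gene Ndc1 begins near the end of that bin. The largest for Cpt2, 0.54, was with 107480001 to 107490000 in Glis1, with counts of 43, 87 and 77 against 72, 119 and 107. Both were picked as the highest of 60 bins and are descriptions. In the opposite direction, Cpt2 had fewer contacts with 107690001 to 107700000 in Dmrtb1, a log2 ratio of -0.34 on counts of 89, 127 and 95 against 69, 85 and 89. It was the 1 left bin with lower, separate values for any of the 4 genes (0.139% of the 720).

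On the genes' own side, lower and separate values were found in 1 of 20 bins for Magoh (5%), 2 of 20 for Czib (10.0%), 1 of 19 for Cpt2 (5.26%) and 1 of 22 for Slc1a7 (4.55%), against 4.26% of 235 combinations over all 12 genes, so these shares are near the background or rest on 1 or 2 bins. Magoh had 174, 263 and 244 contacts with 107740001 to 107750000 in wild type, against 130, 221 and 172 in homozygotes, a log2 ratio of -0.40 after scaling. Czib had 168, 247 and 225 against 116, 192 and 159 (-0.48). In scaled values, every homozygous library was below every wild-type library for both genes.

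Czib was also lower in the next bin, 107750001 to 107760000 (-0.36), and Slc1a7 in 107770001 to 107780000 (-0.30). The latter bin holds only the end of the long non-coding RNA gene Gm12907. Cpt2 was lower in 107830001 to 107840000 within Lrp8 (-0.08). The 1 right bin with higher, separate values was 107780001 to 107790000 for Magoh (0.13). Over all 12 genes, 1.28% of the combinations on the right were higher.

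**Figure D3:**
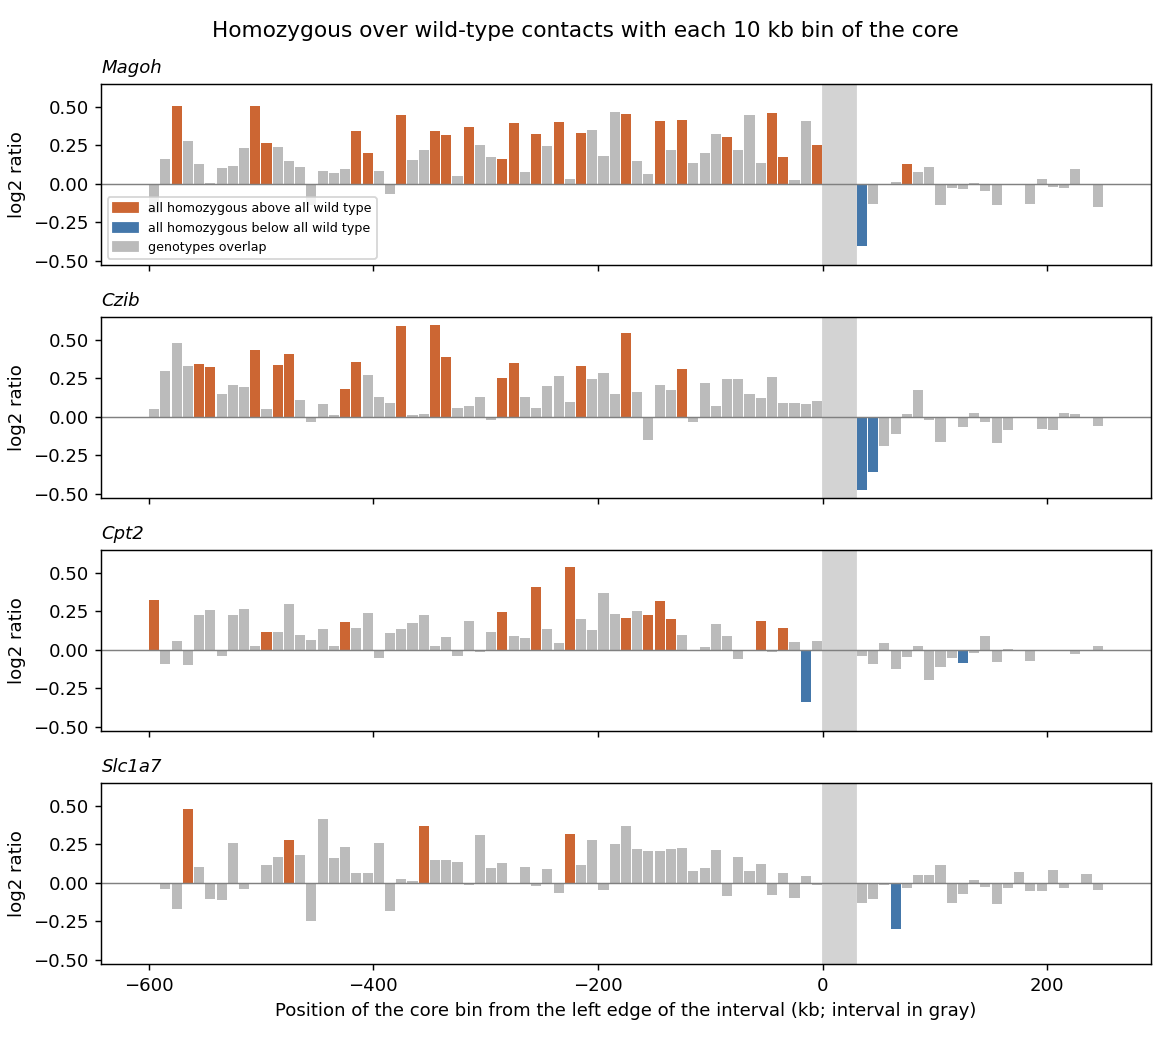
Log2 ratio of homozygous to wild-type contacts of each gene with every single core bin outside the gene, plotted by the bin's position from the left edge of the interval. Gray bars are bins whose genotypes overlap, and bars in other colours are bins whose genotypes do not. Most left bins lie above 0 (57 of 60 for Magoh, 43 of 60 for Slc1a7), while the bin next to the interval on the right is at -0.40 for Magoh and -0.48 for Czib.

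Single pairs of 10 kb bins were fitted in 1 table of 29369 pairs by edgeR's quasi-likelihood method. None of the 963 pairs joining the core to a bin of the 4 genes passed an adjusted p of 0.05 in edgeR; 54 (5.61%) had an unadjusted p under 0.05, against 4.59% of the whole table, and DESeq2 called 0, with 6 under 0.05 unadjusted. In the whole table edgeR called 6 pairs higher (0.0204%) and 0 lower. With the replicate block, described below for gene pairs, it called 24 of the whole table higher (0.0817%) and 6 lower (0.0204%), and again 0 of the 963. On simulated data with changed pairs drawn from the whole table, the test recovered 20% of those changed by a log2 value of 1. It recovered 0% of those changed by 0.5. Mean counts were at least 20 in 5476 of the 29369 pairs, but in 650 of the 963. The simulated recovery is thus that of a sparser set, and detection among the 963 was not simulated. Across the interval, 11 of 120 pairs of Magoh (9.17%) had an unadjusted p under 0.05, all higher, with a median log2 change of 0.20 over the 120. The corresponding counts were 6 of 120 for Czib (5%, all higher, median 0.18), 10 of 180 for Cpt2 (5.56%, 7 higher and 3 lower, median 0.05) and 14 of 360 for Slc1a7 (3.89%, 10 higher and 4 lower, median 0.06). For Czib, Cpt2 and Slc1a7 these shares across the interval are near the 4.59% of the whole table. On the genes' own side, 4 of 41 pairs of Magoh (9.76%) and 5 of 41 of Czib (12.2%) had an unadjusted p under 0.05 in edgeR, all lower. The counts there were 1 of 60 for Cpt2 (1.67%, lower) and 7 of 132 for Slc1a7 (5.30%, 2 higher and 5 lower).

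The pair with the smallest p for each gene was named. For Magoh it was 107740001 to 107750000 with 107880001 to 107890000, at 86, 121 and 111 in wild type, against 59, 88 and 85 in homozygotes. Both bins lie right of the interval, the second is shared with Czib, and the log2 change was -0.52 (SE 0.17, edgeR adjusted p 0.959). For Czib it was 107360001 to 107370000 with 107890001 to 107900000, at 31, 38 and 23 against 38, 68 and 55 (0.73, edgeR adjusted p 0.759).

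For Cpt2 the pair was 107510001 to 107520000 with 107900001 to 107910000, at 11, 20 and 18 contacts against 25, 38 and 25 (log2 change 0.77, edgeR adjusted p 0.991). For Slc1a7 it was 107140001 to 107150000 with 108010001 to 108020000, at 5, 5 and 5 against 12, 12 and 14 (1.26, edgeR adjusted p 0.991). Both cross the interval, the second over 870 kb, and neither passed.

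Contacts summed over the bins of 2 genes carry more counts. Of 416 gene pairs tested, edgeR called 10 higher (2.40%) and 0 lower, none of them among the 107 pairs with Magoh, Czib, Cpt2 or Slc1a7. Of these 107, 10 (9.35%) had an unadjusted p under 0.05 in edgeR, against 12.3% of all 416, and DESeq2 called 0, with 5 under 0.05 unadjusted. Same-numbered libraries deviated together from their genotype means, so the replicate number was also entered as a block. Replicates 1 and 3 deviated together across numbers too (correlations 0.599 and 0.612), so their pairing by number is uncertain. With it, edgeR called 7 of the 107 higher and 5 lower, against 58 (13.9%) and 9 (2.16%) of all 416.

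All 7 pairs that rose in the blocked fit join Magoh or Czib to the left of the interval. Magoh rose with Glis1, on counts of 1229, 2010 and 1483 in wild type, against 1294, 2716 and 1845 in homozygotes (log2 change 0.22, SE 0.05, edgeR adjusted p 0.00019). Magoh also rose with the receptor-like gene Ldlrad1 (0.29, edgeR adjusted p 0.00741) and with Ndc1 (0.21, edgeR adjusted p 0.00931). Czib rose with Glis1 (0.15), Tceanc2 (0.25), Ldlrad1 (0.23) and Tmem59 (0.20), at edgeR adjusted p from 0.00471 to 0.0488. Neighbouring partner genes share bins, so these calls are not independent.

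The 5 pairs that fell lie within the right side. Czib fell with the pseudogene Gm12906 (log2 change -0.32, on counts of 306, 495 and 376 against 235, 410 and 345), with the overlapping Gm12907 (-0.27) and with Lrp8 (-0.12, edgeR adjusted p 0.0473). Cpt2 fell with Lrp8os2 (-0.16, edgeR adjusted p 0.0473), a long non-coding RNA gene within Lrp8, and Slc1a7 with Gm12907 (-0.18, edgeR adjusted p 0.0224). When the shorter distance for 21.3 kb was entered beside the block, 0 of the 7 higher calls remained, and Magoh with Glis1 was at 0.16 (edgeR adjusted p 0.0923). Czib with Gm12906 and Gm12907 stayed lower (edgeR adjusted p 0.0171 and 0.0258), the 2 pairs called lower in the whole table (0.481%), in which 10 were higher (2.40%).

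No call was made between any of the 4 genes and Dmrtb1, with or without the block. The blocked log2 changes were 0.15 for Magoh (edgeR adjusted p 0.0701), 0.05 for Czib, -0.03 for Cpt2 and -0.05 for Slc1a7. Magoh and Dmrtb1 had 430.0, 639 and 578 in wild type, against 451, 811 and 655 in homozygotes. Magoh and Lrp8 share a bin and were not tested as a pair.

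Lrp8 lies between the 4 genes and the interval, and its share of contacts across it was 31.4% ± 0.584 in wild type and 36.5% ± 0.852 in homozygotes (SD, n = 3 each). The change of each gene was set against that of Lrp8 in the same library, as the log2 ratio of the shares. The ratio moved by -0.01 for Magoh (exact permutation p 0.6) and -0.02 for Czib (exact permutation p 0.5), with overlapping genotypes. It moved by -0.09 for Cpt2 and -0.15 for Slc1a7, with separate genotypes, homozygotes being lower (exact permutation p 0.1, adjusted p 0.2 in either case). With left levels in place of shares the genotypes overlapped for both (-0.16 and -0.18). One bin of Magoh is also a bin of Lrp8, so its ratio sets some contacts against themselves. The bins of Slc1a7 lie outside the core, and its nearest neighbours on the right are not counted. Its ratio of shares is therefore not on the same footing as those of the other genes. Without both replicate 2 libraries the shares gave 0.01 for Magoh, 0.02 for Czib, -0.06 for Cpt2 and -0.12 for Slc1a7, so the sign turned for Magoh and Czib. Among the other 11 genes right of the interval 18.2% were lower and separate in this ratio, and these were Cpt2 and Slc1a7.

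The genes most like each member were sought over the 6 left segments, by the mean absolute difference of the log2 ratios among genes right of the interval that are not among the 4 and share no bin with the member. For Magoh they were Lrp8os2 (0.061), Lrp8os3 (0.061) and Gm40221 (0.066) of 7 candidates. For Czib they were Gm40221 (0.073), 4930407G08Rik (0.094) and Lrp8os3 (0.115) of 8. For Cpt2 they were 4930407G08Rik (0.040), Gm40221 (0.084) and 4933424M12Rik (0.127) of 8, and for Slc1a7 Gm40221 (0.093), 4933424M12Rik (0.154) and Lrp8os2 (0.165) of 7. Most candidates are long non-coding RNA genes, as are all those named. Within the 4, Cpt2 and Slc1a7 differed by 0.041, Czib and Cpt2 by 0.069, and Magoh and Czib, which share a bin, by 0.065. Cpt2 was thus closer to Slc1a7 than Gm40221 was to either, but 4930407G08Rik was as close to Cpt2 (0.040). The values of all genes come from the same 6 libraries.

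Expression was available as the authors' deposited tables of regressions of gene expression on genotype over 9 testis RNA samples (B396.BOS homozygous and heterozygous deletion and wild type, 3 each). Of the 4 genes, Slc1a7 alone has a row in the authors' deposited table of trans genes. Its slope there is 0.290 (t statistic 3.60, p 0.00878, FDR 0.631), in an expression unit and with a coding of genotype that are not given in the sources used here, so the sign of a slope cannot be read as higher or lower expression with the deletion. It ranks 480 of 566 by p, and 456 rows of the authors' deposited table have a larger positive slope. That table lists 1.57% of 35970 tests, stops at a p of 0.00998, and has a positive slope in 95.1% of its rows. Magoh, Czib and Cpt2 have no row, and none of the 4 is among the 6 genes of the authors' deposited cis table. Older symbols were sought for Czib only. A missing row in the authors' deposited table says only that a p did not reach the table's limit or that the gene was not tested.

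Genes of the same pathways were looked up in the authors' deposited trans table. Of 16 other genes of the exon junction complex and nonsense-mediated decay, 1 is listed, Ncbp1, a subunit of the cap-binding complex (slope 26.2, FDR 0.634). Of 16 genes of the carnitine shuttle and fatty acid oxidation, 2 are listed in the authors' deposited table, the trifunctional protein subunit Hadha (slope 21.6) and the carnitine acetyltransferase Crat (slope 39.9), both at an FDR of 0.631. None of the 6 other glutamate and neutral amino acid transporters of the Slc1 family is listed, nor are any of 6 spermatid genes such as Prm1 or 8 Sertoli and Leydig cell markers such as Sox9 and Insl3. All 3 listed slopes are positive, as are most in the table, and none is below an FDR of 0.05.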

How the data were processed

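For each capture Hi-C library the authors deposited contact counts of pairs of 10 kb bins, whole numbers with no normalization, on mm10 per the submitters' processing notes; how reads were aligned and filtered is not given in the sources used here. Library making used an Arima kit, then SureSelect enrichment, per the labels' protocols. For RNA-seq the authors deposited 2 Matrix eQTL tables holding, per gene, 2 scores (t statistic and slope), a p-value and its FDR; STAR is named for RNA-seq in the submitters' processing notes. ChIP-seq was not analysed here.

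File names, which give genotype and number, tied files to libraries. Genes were placed with RefSeq GRCm38.p6, the same build as mm10. A gene's contacts were summed over its bins, without contacts of a bin with itself, against core bins outside the interval. Genotypes were compared by 2-sided exact permutation tests (20 arrangements, smallest p 0.1), so a call means that the genotypes did not overlap. Bin pairs and gene pairs (mean count 5 or more) entered edgeR 4.0.16 (quasi-likelihood, TMM, Benjamini-Hochberg over the whole table, adjusted p 0.05) in R 4.3.3, with DESeq2 1.42.0 as an alternative; the fits were tested on simulated data. The deviations of same-numbered libraries from their genotype means correlated at 0.761, 0.934 and 0.684 over 176 values, and the numbers were taken to pair the libraries. Wild-type replicate 1 with homozygous replicate 3 gave 0.599, and wild-type replicate 3 with homozygous replicate 1 gave 0.612. These values mainly set replicate 2 apart and hardly tell the pairing of replicates 1 and 3. The labels do not state what same-numbered libraries share. Named items were the 4 genes, partner genes called by a fit together with Dmrtb1, Glis1 and Lrp8, the bin pair with the smallest p for each gene where none was called, and the 3 most similar genes. Single bins with the largest ratios were picked after their values were seen. The genes, lists and tests were chosen with earlier results of these data known. Alternatives changed scaling, distance, balancing, filters and libraries.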

Additional observations from a re-analysis of the deposited data

How the results depend on the processing

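Shares of contacts across the interval kept their direction under all 17 alternatives (16 for Magoh, whose bins are all shared and could not be left out), from 2.52 to 4.2 points for Magoh, 2.31 to 4.19 for Czib, 1.04 to 2.60 for Cpt2 and 0.806 to 3.13 for Slc1a7. The genotypes overlapped for Slc1a7 after 3 bins (1.11 points; 0.806 with the chromosome 4 decay). Left levels overlapped per contact of the library (log2 ratios 0.21, 0.18, 0.11 and 0.089 for Magoh, Czib, Cpt2 and Slc1a7) and per contact of the chromosome 2 region (0.24, 0.20, 0.14 and 0.11). They also overlapped for Cpt2 per core contact (0.099) and after 3 bins (0.052; 0.035 with the chromosome 4 decay), and for Slc1a7 after 2 bins (0.065), 21.3 kb (0.062; 0.049 with the chromosome 4 decay) and 3 bins (0.046; 0.028 with the chromosome 4 decay). With 1 library left out, right levels ran from -0.096 to -0.032 for Magoh, -0.11 to -0.042 for Czib, -0.073 to -0.0093 for Cpt2 and -0.043 to 0.0039 for Slc1a7, which changed sign without wild-type replicate 3. The genotypes of Slc1a7 separated without wild-type replicate 1 (-0.043). Paired by the replicate block, right levels were -0.066, -0.080 and -0.045 for Magoh, Czib and Cpt2, lower in every pair. The block also made the gene pair calls above (7 higher, 5 lower) and changed no call in shares. With 21.3 kb entered beside it, 2 gene pairs were lower, against 2 of all 416 (0.481%). With 3 bins 5 were lower, against 17 of all 416 (4.09%). These 5 were Czib with Gm12906 and Gm12907, and Magoh, Czib and Cpt2 with 1700047F07Rik, which spans the interval. Without replicate 2 of both genotypes, an alternative chosen after seeing the data, right levels separated at -0.091, -0.11 and -0.067, and the ratios to Lrp8 changed sign for Magoh (0.011) and Czib (0.018). With 1 library left out, the ratio to Lrp8 ran from -0.022 to 0.0060 for Magoh. With levels in place of shares, Cpt2 (-0.16) and Slc1a7 (-0.18) overlapped against Lrp8. Segments called higher numbered 8 per core contact and 8 after 3 bins, and 1 was lower after 21.3 kb and after 3 bins. Gene pairs that changed sign, none of them called, were Cpt2 with Dmrtb1 (0.015 without TMM) and Czib with Dmrtb1 (-0.075 after 21.3 kb; with the block, -0.073 after 21.3 kb and -0.13 after 3 bins), and Magoh with Dmrtb1 (-0.061 with the block after 3 bins). With 1 library left out, pairs with Dmrtb1 ran from -0.080 to 0.0043 for Cpt2, -0.012 to 0.087 for Czib and -0.10 to 0.020 for Slc1a7, and Slc1a7 with Lrp8 from -0.16 to 0.020. Causes were not tested. Over the whole table, counts of 10 kb pairs limited what edgeR detected in simulated data, which was not measured for the pairs of the 4 genes alone. The unfiltered gene pair table held the same pairs.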
